A study of Mus musculus with 18 samples.

Results

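The interleukin-1 (IL-1) family is a group of secreted signals and their receptors that act early in tissue injury. The genes described here were 10 of the 32285 genes in the deposited matrices: the ligand genes Il1a, Il1b, Il1f9, Il33 and Il18, the antagonist gene Il1rn, and the receptor genes Il1r1, Il1r2, Il1rl1 and Il1rap. They were chosen by symbol, and each was present once in all 10 matrices. Mouse skin had been expanded by a hydrogel placed under the skin near the neck after an incision near the tail, and control mice had the same incision and path under the skin but no hydrogel. Living cells, which excluded the dye DAPI, were sorted from digested skin and sequenced from the 3′ end in droplets. Each arm had 5 libraries: 2 of day 1 (sequencing rounds 1 and 2), 2 of day 2 (rounds 1 and 2) and 1 of day 4. Each library pooled the mice of 1 arm and round, and an antibody tag marked the 3 or 4 mice of a pool in 8 libraries. The strain, age and sex of the mice were not given in the sources used here.

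IL-1α (Il1a) and IL-1β (Il1b) bind the receptor IL-1R1 (Il1r1), which signals only together with the co-receptor IL-1RAcP (Il1rap). The antagonist IL-1Ra (Il1rn) occupies IL-1R1 without signalling, and IL-1R2 (Il1r2) is a decoy that binds IL-1 but cannot signal. IL-33 (Il33) is held in the nucleus of barrier cells, is set free when they are damaged, and binds ST2 (Il1rl1), which also pairs with IL-1RAcP and is known from regulatory T cells, mast cells and group 2 innate lymphoid cells. Il1f9 codes for IL-36γ, an agonist of the IL-36 receptor, and IL-18 (Il18) is matured by caspase 1, as is IL-1β. In skin, IL-1 from keratinocytes and myeloid cells is known to make fibroblasts release chemokines that attract neutrophils.

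In the GENCODE annotation of GRCm38 all 10 genes are protein coding. Il1r2 (chr1:40074079-40125231), Il1r1 (chr1:40225080-40317257) and Il1rl1 (chr1:40429570-40465415) lie in this order on the plus strand of chromosome 1. Il1f9 (chr2:24186476-24193568) and Il1rn (chr2:24336853-24351494) lie on the plus strand of chromosome 2, and Il1a (chr2:129299610-129309972) and Il1b (chr2:129364570-129371139) on its minus strand. Il18 (chr9:50554827-50581840), Il1rap (chr16:26581704-26730117) and Il33 (chr19:29925114-29960718) lie on plus strands.

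Promoter windows are shown for the agonist genes Il1a and Il1b, whose mean levels were highest in neutrophils (for Il1a in control skin with overlap), and for the ligand and receptor pair Il33 and Il1rl1, both of which were higher in fibroblasts of expanded skin. Each window holds the 250 bases before a transcription start in RefSeq (build GRCm38.p6), read 5′ to 3′ on the strand of the gene. RefSeq gave 15 such windows for the 10 genes. Capitals mark a match to the TATA box letters TATAAA or to the AP-1 letters TGANTCA, which were searched on both strands together with the NF-kappa-B letters (GGG, any 2 bases, TTTCC). The Il1a and Il1b windows lie on the minus strand of chromosome 2 at chr2:129309973-129310222 and chr2:129371140-129371389. The Il33 window at chr19:29945540-29945789 precedes the downstream of its 2 starts, and the Il1rl1 windows at chr1:40429320-40429569 and chr1:40439379-40439628 precede its distal and its proximal start.
Il1a: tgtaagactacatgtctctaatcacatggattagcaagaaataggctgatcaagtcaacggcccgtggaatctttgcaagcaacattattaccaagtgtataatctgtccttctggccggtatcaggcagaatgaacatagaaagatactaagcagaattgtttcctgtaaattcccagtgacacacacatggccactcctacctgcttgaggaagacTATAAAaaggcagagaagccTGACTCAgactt
Il1b: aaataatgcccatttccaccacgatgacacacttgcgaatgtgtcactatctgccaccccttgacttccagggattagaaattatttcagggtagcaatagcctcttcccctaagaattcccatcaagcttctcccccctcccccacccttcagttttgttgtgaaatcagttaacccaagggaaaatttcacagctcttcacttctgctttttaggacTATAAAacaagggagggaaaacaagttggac
Il33, downstream start: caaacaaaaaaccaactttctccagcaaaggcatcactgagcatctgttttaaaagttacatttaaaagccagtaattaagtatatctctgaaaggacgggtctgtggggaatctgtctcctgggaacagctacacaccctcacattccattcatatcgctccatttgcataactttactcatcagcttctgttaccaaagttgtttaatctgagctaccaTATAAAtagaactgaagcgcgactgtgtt
Il1rl1, distal start: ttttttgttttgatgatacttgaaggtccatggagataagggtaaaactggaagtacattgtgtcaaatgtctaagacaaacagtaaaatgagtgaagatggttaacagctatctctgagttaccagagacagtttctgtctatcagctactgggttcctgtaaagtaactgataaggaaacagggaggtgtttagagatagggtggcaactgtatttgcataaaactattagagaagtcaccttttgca
Il1rl1, proximal start: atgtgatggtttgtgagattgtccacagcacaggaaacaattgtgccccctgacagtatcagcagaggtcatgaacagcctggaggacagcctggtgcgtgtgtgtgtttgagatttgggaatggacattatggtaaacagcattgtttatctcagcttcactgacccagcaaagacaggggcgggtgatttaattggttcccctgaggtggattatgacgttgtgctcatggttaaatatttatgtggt
TATAAA ended 27 bases before the start of Il1a, 26 before that of Il1b and 24 before the downstream start of Il33. In the window of the other Il33 start, which is not printed, it lay farther off, 203 to 198 bases before the start. Of all 32851 RefSeq windows of this length, 2.31% held TATAAA on the gene's strand within the last 40 bases. TGACTCA lay 12 to 6 bases before the Il1a start, and 6.75% of all windows held TGANTCA anywhere. Neither Il1rl1 window held any of the 3 motifs, of which that of NF-kappa-B was in 1.41% and TATAAA anywhere in 12.4% of all windows. Counting from the 3′ end does not show which start a transcript came from, and the gene totals do not part the membrane form of ST2 from its soluble decoy form.

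After filters, 47251 barcodes were kept and 1763 of them removed as doublets, which left 45488 cells, 28452 from control and 17036 from expanded skin. Libraries held 17726739 to 75470722 gene UMIs, with a median of 6440.5 to 12847.5 UMIs per kept cell, and any pair of libraries shared 1 to 23 barcodes. The cells included the keratinocytes, fibroblasts, vessel and immune cells of skin, grouped into classes by marker genes, with the 10 members left out of the clustering, and a class name stands for cells like that type by those markers. Levels are UMIs of a gene per 1000000 UMIs (CPM) of a class in a library, over libraries with at least 20 cells of the class. Neutrophils numbered 7, 29, 9, 43 and 20 in the control libraries and 20, 210, 496, 185 and 301 in the expanded ones, in the order day 1 round 1, day 1 round 2, day 2 round 1, day 2 round 2 and day 4, which is kept for all lists that follow. Resident macrophages numbered 183 to 577 in the control and 3 to 59 in the expanded libraries. Of the recruited monocytes, 66.8% in control and 72.7% in expanded skin lay in a cluster led by Arg1, Ppbp and Pdpn. Its 10 leading genes held 0 markers of the class and 1 of another (Pdpn), so the class name is uncertain for it. Transcripts of 5 neutrophil genes (Retnlg, Csf3r, Cxcr2, G0s2 and Mmp9), which free RNA can carry into other droplets, summed to 13227 and 11318 CPM in neutrophils and to 8.96 and 13.1 CPM in fibroblasts of control and expanded skin. Fold changes come from edgeR's quasi-likelihood test, fitted with a term for the day, and a gene is called where its p, adjusted over all genes tested in the class, is under 0.05. Fold changes are relative to the TMM scaling, without which the median of all genes was 0.22 higher on the log2 scale in fibroblasts, 0.25 in MHC class II phagocytes and 0.18 over all cells.

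Neutrophils held the highest mean levels of the IL-1 agonists, by a margin beyond the spread of libraries for Il1b in both arms. For Il1a in control skin the neutrophil libraries (30.1 to 229 CPM) overlapped with those of resident macrophages (14.5 to 117 CPM). Il1b averaged 16591 ± 2281 CPM in control (SD, n = 3) and 15551 ± 4803 CPM in expanded skin (SD, n = 5), and every neutrophil library lay above every library of the next class. Those next classes were recruited monocytes in control skin (3016 ± 1275 CPM, n = 4) and dendritic cells in expanded skin (3186 ± 843 CPM, n = 4), and they overlapped with MHC class II phagocytes. After thinning of each cell to 2000 UMIs, 99.4% of 1021 expanded neutrophils had an Il1b UMI, against 3.22% of 466 Schwann cells, a class that should lack the gene and gauges free RNA (median 3005 and 3780.0 UMIs per cell, 99.2% and 5.80% unthinned). In CPM, Schwann cells held 22.01 ± 24.6 in control and 20.5 ± 31.5 in expanded skin, and neutrophils of both arms lay far above that. Of the 5 neutrophil transcripts Schwann cells held 155 CPM in control and 103 CPM in expanded skin, more than any other class but neutrophils. The same transcripts averaged 43.25 CPM in control and 16.6 CPM in expanded skin in lymphatic endothelial cells. They averaged 5.78 and 27.2 CPM in dermal papilla or sheath cells and 5.51 and 16.7 CPM in pericytes or smooth muscle. The direction thus differed between classes, and the part of free RNA was not tested.

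The other IL-1R1 agonist gene, Il1a, averaged 123 ± 99.9 CPM in control (SD, n = 3) and 817 ± 324 CPM in expanded skin (SD, n = 5). The 3 control neutrophil libraries held 30.1, 229 and 111 CPM and the 5 expanded ones 605, 857, 829, 472 and 1321 CPM, so the arms did not overlap. Fewer than 4 control libraries had 20 neutrophils, so neutrophils entered no test between arms. Thinning left out 58 of 108 control and 191 of 1212 expanded neutrophils, whose median depths were 1975.5 and 3005 UMIs. Of those left, 5 of 50 control neutrophils (10.0%, 95% exact interval 3.33% to 21.8%) and 294 of 1021 expanded ones (28.8%, 26.03% to 31.7%) had an Il1a UMI, intervals that cover counting error only (12.04% and 31.1% unthinned). No thinned Schwann cell had one in either arm (0 of 442 and 0 of 466, upper limits 0.831% and 0.788%). In control skin Il1a was also measured in resident macrophages, at 59.3 ± 42.97 CPM (SD, n = 5), while the 2 expanded libraries with at least 20 of these cells held 1.53 and 0 CPM.

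Il1f9 was highest in neutrophils, with 493 ± 151 CPM in control (SD, n = 3) and 638 ± 276 CPM in expanded skin (SD, n = 5). The arms overlapped (332 to 633 CPM in control and 349 to 1052 CPM in expanded libraries). Suprabasal keratinocytes, the next class in control skin, held 6.71 ± 2.02 CPM (n = 4). Thinned, 46.0% of control and 45.8% of expanded neutrophils had an Il1f9 UMI (39.8% and 51.5% unthinned), and no Schwann cell did.

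The antagonist gene Il1rn was highest in neutrophils too, at 2409 ± 728 CPM in control (SD, n = 3) and 2394 ± 884 CPM in expanded skin (SD, n = 5). In control skin resident macrophages (764 ± 201 CPM) and recruited monocytes (587 ± 109.8 CPM) came next among the named classes, with overlapping ranges. Il18 was spread over the mononuclear phagocytes: recruited monocytes held 48.7 ± 14.4 CPM in control (SD, n = 4) and 58.9 ± 27.7 CPM in expanded skin (SD, n = 5), and MHC class II phagocytes 40.1 ± 6.87 CPM in control (SD, n = 5) and 40.6 ± 8.20 CPM in expanded skin (SD, n = 4). The arms overlapped in both. Langerhans cells, the dendritic cells of the epidermis, had 20 cells in 1 control and 2 expanded libraries, with 83.6 CPM of Il18 in the first and 127 and 579 CPM in the others.

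**Figure D1:**
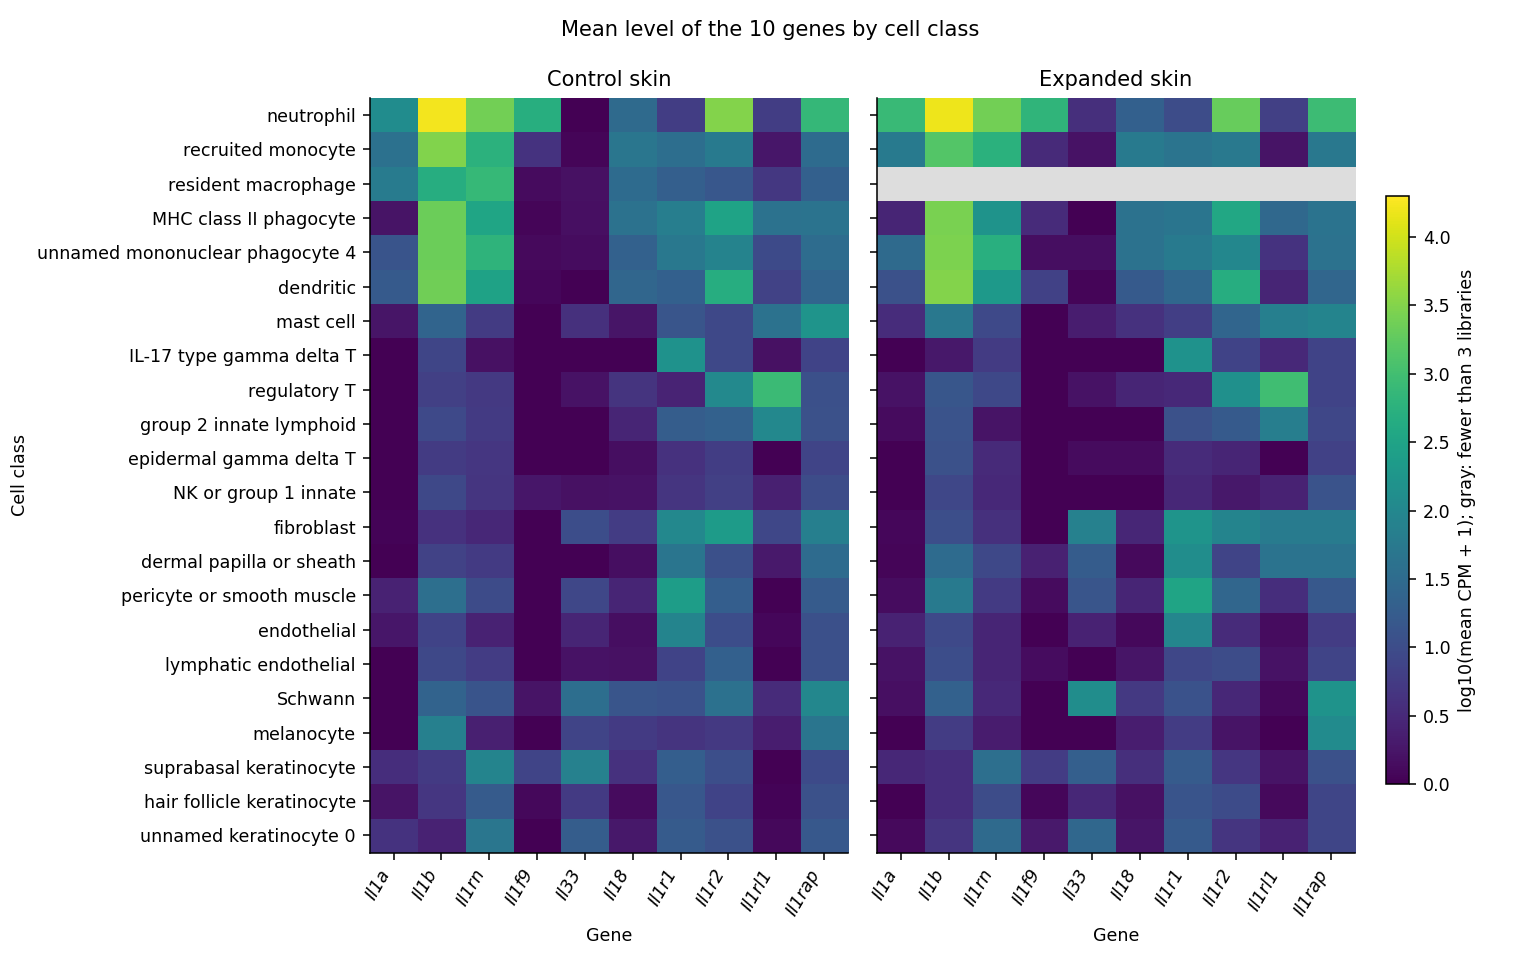
Mean level of the 10 genes (columns) in each cell class (rows) in control and expanded skin, as colour on a scale of log10(CPM + 1); grey fields have fewer than 3 libraries with 20 cells. Il1b, Il1rn, Il1r2 and Il1f9 peak in neutrophils, Il1rl1 in regulatory T cells and Il1r1 in pericytes or smooth muscle.

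Il33 was highest in structural cells. In control skin suprabasal keratinocytes held 77.5 ± 68.2 CPM (SD, n = 4), with a range of 0 to 149 that overlapped with sebaceous gland cells and Schwann cells, and fibroblasts held 9.26 ± 8.37 CPM (n = 5). In expanded skin the order was Schwann cells (128 ± 198 CPM), fibroblasts (76.1 ± 40.1 CPM, n = 5), an unnamed keratinocyte cluster (26.002 ± 10.1 CPM) and suprabasal keratinocytes (19.3 ± 7.44 CPM, n = 3), each overlapping with the next. The Schwann mean rested on day 1 round 1, a library with 21 Schwann cells and 477 CPM, while the other 4 held 2.40 to 89.9 CPM. Conventional T cells, in which Il33 gauges free RNA, held 0 CPM in control and 3.18 CPM in expanded skin, the latter from 1 UMI.

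The receptor genes differed in their leading classes. Il1r1 was highest in pericytes or smooth muscle (244 ± 67.9 CPM in control (SD, n = 5) and 318 ± 105 CPM in expanded skin (SD, n = 5)), followed in control skin by IL-17 type γδ T cells (157 ± 64.3 CPM) and fibroblasts (101 ± 14.5 CPM), each overlapping with its neighbour. The decoy gene Il1r2 was highest in neutrophils, at 3150.2 ± 511 CPM in control (SD, n = 3) and 2032 ± 734 CPM in expanded skin (SD, n = 5). Dendritic cells (479 ± 114 and 485 ± 199 CPM) and MHC class II phagocytes (317 ± 50.1 and 375 ± 120.5 CPM) came next in both arms. Il1rl1 was led by regulatory T cells with 862 ± 329 CPM in control (SD, n = 4) and 967 ± 399 CPM in expanded skin (SD, n = 4), above every library of the next class in both arms. In control skin group 2 innate lymphoid cells held 102 ± 59.997 CPM of Il1rl1 and MHC class II phagocytes 41.4 ± 2.51 CPM, the latter overlapping with mast cells at 40.4 ± 42.5 CPM. The co-receptor gene Il1rap was highest in neutrophils (729.8 ± 98.5 CPM in control (SD, n = 3) and 876 ± 174 CPM in expanded skin (SD, n = 5)), with mast cells (168 ± 12.6 CPM) next in control skin and Schwann cells (162 ± 84.3 CPM) in expanded skin.

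Over all cells of a library, 4 of the 10 members were higher in expanded skin and none was lower, against 25.2% of the 17634 genes tested called in either direction and 11.9% called higher. In such sums fewer cells of a type and less RNA per cell cannot be told apart. Il1f9 was 0.481, 1.02, 0.180, 1.43 and 0.274 CPM in the control libraries and 1.00, 9.65, 27.6, 39.2 and 12.96 CPM in the expanded ones (log2 fold change 4.13 ± 0.77 (SE), adjusted p 0.00644, higher in 5 of 5 pairs). Its lowest expanded library, day 1 round 1, was also the expanded library with the fewest neutrophils. Il33 was 2.88, 7.55, 5.57, 11.3 and 10.7 CPM in control and 15.6, 26.8, 32.4, 14.8 and 24.02 CPM in expanded libraries, which did not overlap (log2 fold change 1.49 ± 0.33 (SE), adjusted p 0.0116, 5 of 5 pairs). Il1rl1 was 10.2, 13.7, 15.6, 16.3 and 11.6 CPM in control and 18.3, 40.1, 22.5, 27.03 and 20.4 CPM in expanded libraries, also without overlap (log2 fold change 0.76 ± 0.20 (SE), adjusted p 0.0239, 5 of 5 pairs). The Il1rl1 call was lost when any of 5 libraries was left out in turn (control day 1 round 1, day 1 round 2 or day 4, expanded day 2 round 2 or day 4), with values of 0.68 to 0.79, and after thinning (0.75, adjusted p 0.128).

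Il1a was 4.27, 4.56, 2.64, 2.29 and 8.10 CPM in control and 2.14, 13.3, 59.4, 23.98 and 53.5 CPM in expanded libraries, with the day 1 round 1 library of expanded skin below every control library (log2 fold change 2.29 ± 0.74 (SE), adjusted p 0.0490, 4 of 5 pairs). This call was lost with median-ratio scaling (adjusted p 0.0523), when the libraries were blocked by day and round (2.14, adjusted p 0.0715) and without any 1 library other than expanded day 1 round 1, where it ranged from 1.82 to 2.51. Il1b averaged 312 and 919 CPM (log2 fold change 1.10 ± 0.45 (SE), adjusted p 0.1002) and Il1rn 102 and 180.1 CPM (log2 fold change 0.28 ± 0.55 (SE), adjusted p 0.738), and neither was called. The other 4 members had log2 fold changes between -0.54 for Il1r2 and 0.28 for Il18, with adjusted p of 0.172 or more. By DESeq2 Il1b was called as well.

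The cells that gave each member's UMIs were followed as shares of its UMIs in a library. The class shown for a member is the one with the largest share in either arm, so it was picked from the values that are set side by side, and the shares are given as a description with no test. They follow the number of sorted cells of a class as well as the level per cell. The share of Il1a UMIs from resident macrophages was 66.9% ± 27.9 in control and 0.4664% ± 0.485 in expanded skin (SD, n = 5 each), and neutrophils, which gave 4.76% ± 7.99 in control skin, gave 65.8% ± 7.21 in expanded skin. The neutrophil share of Il1f9 was 52.4% ± 31.3 in control and 88.04% ± 8.28 in expanded skin (SD, n = 5 each). The share of Il1rn from recruited monocytes was 6.39% ± 9.38 in control and 42.5% ± 12.5 in expanded skin (SD, n = 5 each). That of Il18 was 5.08% ± 7.36 in control and 49.4% ± 29.3 in expanded skin (SD, n = 5 each). Resident macrophages gave 41.7% of Il1rn UMIs in control and 5.71% in expanded skin. The counts of sorted neutrophils, recruited monocytes and resident macrophages moved with these shares, and their part was not tested.

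For the 4 receptor genes the class with the largest share was the fibroblast class. Its share of Il1rl1 was 29.9% ± 13.3 in control and 57.6% ± 8.06 in expanded skin (SD, n = 5 each), higher in 5 of 5 pairs. The fibroblast share of Il1rap was 75.9% ± 7.93 in control and 33.3% ± 23.3 in expanded skin (SD, n = 5 each), that of Il1r2 74.4% ± 11.95 in control and 25.1% ± 31.9 in expanded skin (SD, n = 5 each), and that of Il1r1 72.6% ± 7.18 in control and 57.8% ± 11.3 in expanded skin (SD, n = 5 each). Each of these 3 was lower in 5 of 5 pairs. Neutrophils gave 1.89% of Il1r2 UMIs in control and 35.3% in expanded skin, and 1.501% and 31.7% of Il1rap UMIs. The MHC class II phagocyte share of Il1b was 53.5% ± 23.05 in control and 18.6% ± 24.2 in expanded skin (SD, n = 5 each), and the fibroblast share of Il33 was 54.05% ± 26.8 in control and 75.6% ± 13.1 in expanded skin (SD, n = 5 each).

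**Figure D2:**
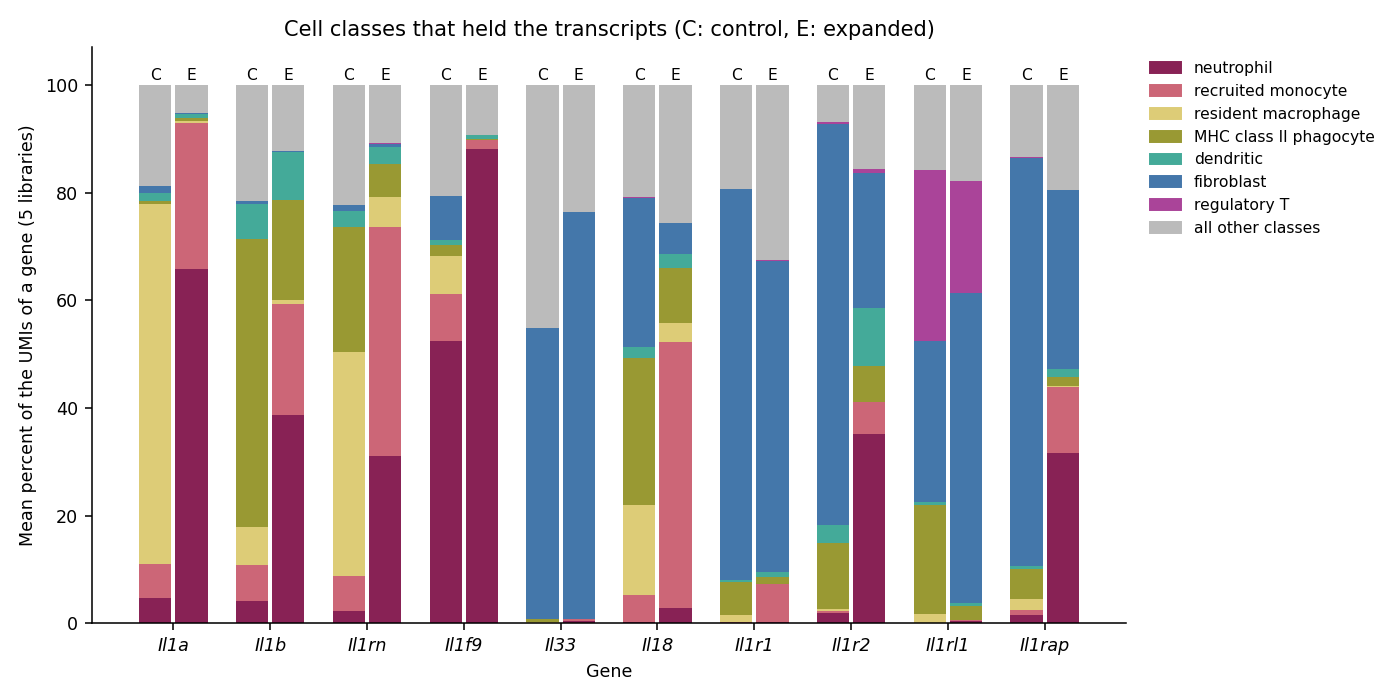
Mean percent of each gene's UMIs by cell group (stacked bars, 5 libraries per arm) in control and expanded skin. The Il1a bar changes from resident macrophages (66.9%) to neutrophils (65.8%), and fibroblasts supply 57.6% of Il1rl1 in expanded skin.

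Since IL-1Ra competes with IL-1α and IL-1β for their receptor, the log2 ratio of Il1rn UMIs to the sum of Il1a and Il1b UMIs was taken within each library and compared between arms. Over all cells it was -1.48 ± 0.81 in control and -2.44 ± 0.42 in expanded skin (SD over 5 libraries each, exact permutation p 0.0397), lower in 5 of 5 pairs. In MHC class II phagocytes it was -2.69 ± 0.49 (n = 5) and -4.43 ± 1.14 (n = 4, exact permutation p 0.0159), lower in 4 of 4 pairs. In recruited monocytes it was -2.30 ± 0.58 (n = 4) and -1.25 ± 0.74 (n = 5, exact permutation p 0.0635), higher in 4 of 4 pairs. Adjusted over the 10 ratios tested, the lowest p was 0.159, so none passed. In MHC class II phagocytes 0.0159 is the lowest p that 5 against 4 libraries can give. With so few libraries a single ratio could not pass this adjustment, which thus cannot decide whether that ratio differed. In neutrophils the ratios were -2.83 ± 0.39 (n = 3) and -2.81 ± 0.34 (n = 5).

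Within classes, 54 of the 140 member-by-class pairs had enough counts to test, over 14 classes with at least 4 libraries per arm, and 14 were called, 6 higher and 8 lower. Fibroblasts held 6 of these calls, dermal papilla or sheath cells 3, MHC class II phagocytes 2, and endothelial, Schwann and melanocyte classes 1 each. The share of all genes called in the 14 classes ran from 0.177% in regulatory T cells to 30.3% in fibroblasts. No member had enough counts in NK or group 1 innate cells or in epidermal γδ T cells. Il1f9 could be tested in none of the 14 classes and Il1a in 1 (recruited monocytes).

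**Figure D3:**
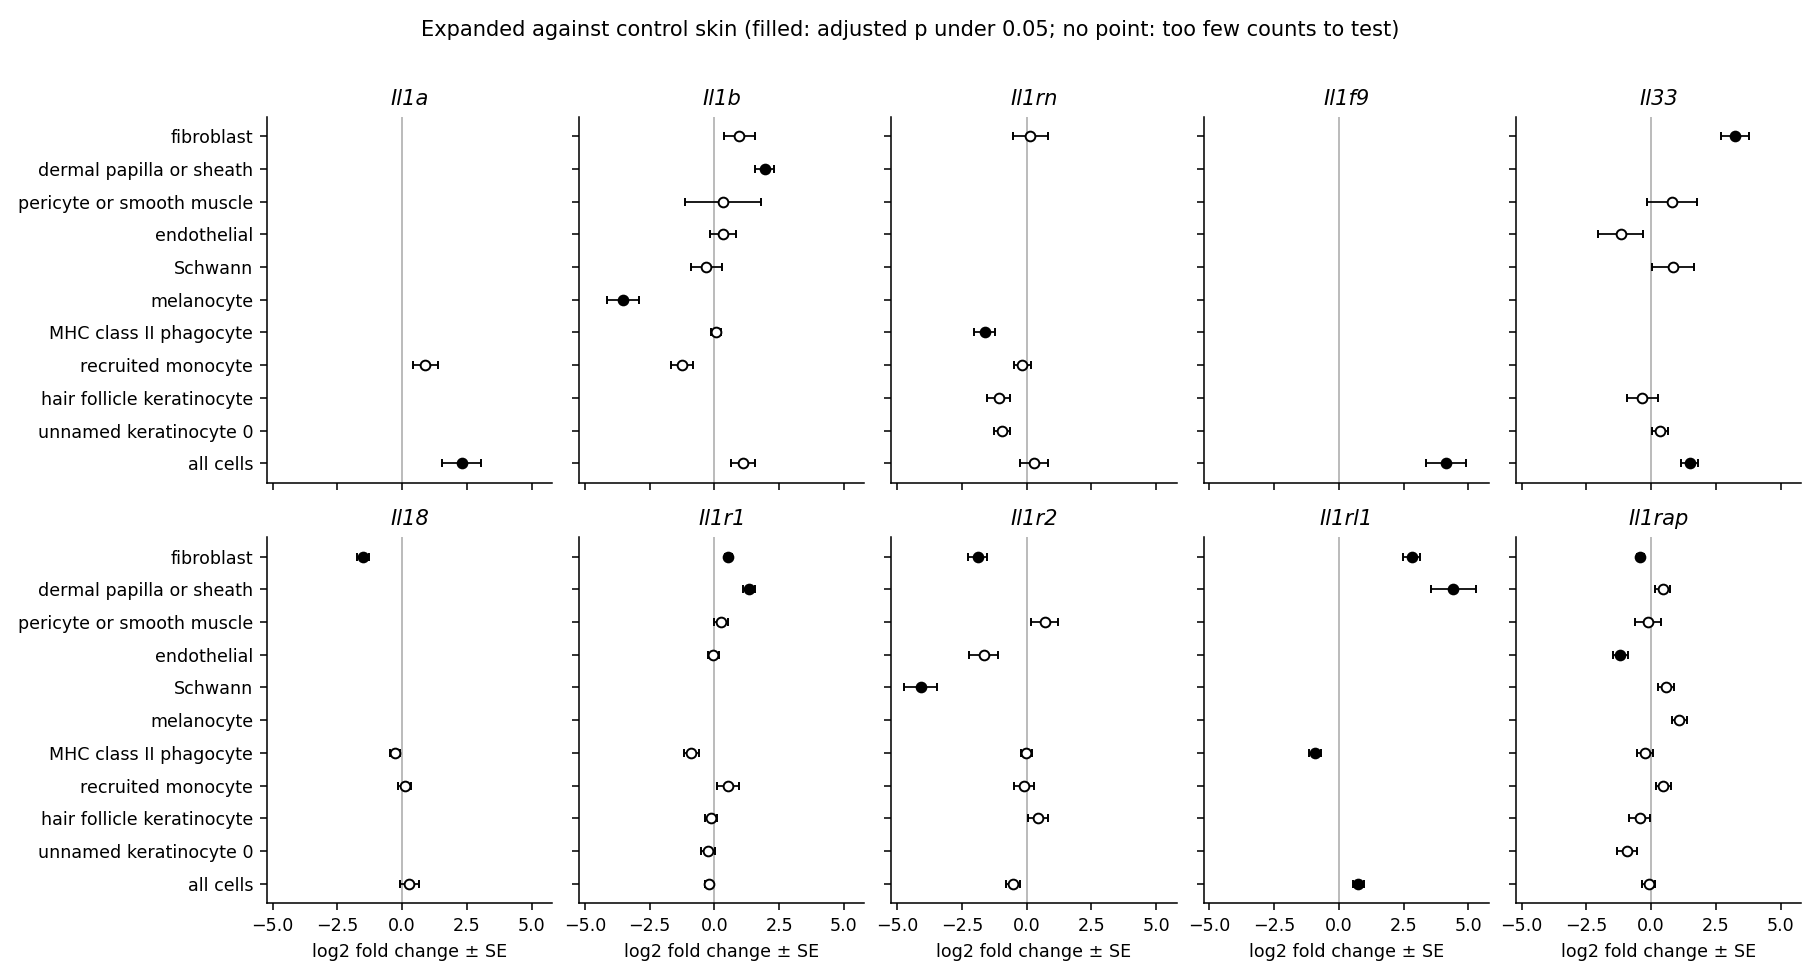
Log2 fold change ± SE of each member (panels) in expanded against control skin, by cell class (vertical axis); filled points have an adjusted p under 0.05, and classes without a point had too few counts. Fibroblasts show 3 members higher and 3 lower.

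Fibroblasts, the collagen-making cells of the dermis (13237 control and 3706 expanded cells), carried more Il33 and more of its receptor gene Il1rl1 in expanded skin. With 8 members tested, 3 were higher and 3 lower, against 30.3% of all 14137 genes called (14.5% higher, 15.8% lower). Il33 was 1.27, 2.69, 6.79, 21.1 and 14.5 CPM in the control libraries and 19.6, 89.4, 104, 50.8 and 116 CPM in the expanded ones (log2 fold change 3.24 ± 0.54 (SE), adjusted p 0.00159, higher in 5 of 5 pairs). Of the expanded libraries 1, day 1 round 1, lay below the highest control library, and the other 4 lay above all controls. Il1rl1 was 7.49, 6.31, 3.64, 12.4 and 6.19 CPM in the control libraries and 29.5, 85.9, 49.5, 72.7 and 59.4 CPM in the expanded ones, with no overlap (log2 fold change 2.81 ± 0.33 (SE), adjusted p 0.000353, 5 of 5 pairs). Thinned to 2000 UMIs, 1.12% of control and 4.45% of expanded fibroblasts had an Il33 UMI, and 0.684% and 3.81% an Il1rl1 UMI (3.19%, 10.1%, 1.90% and 7.50% unthinned, median 9800 and 12194 UMIs). Both genes were thus read in a small part of the fibroblasts at this depth. Suprabasal keratinocytes, the background class for Il1rl1, held it in 0 of 219 and 0 of 228 thinned cells.

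The signalling receptor gene Il1r1 was 84.6, 92.3, 113, 119 and 94.7 CPM in the control libraries and 108, 178, 172, 173 and 220.0 CPM in the expanded ones (log2 fold change 0.53 ± 0.14 (SE), adjusted p 0.0164, 5 of 5 pairs), with 1 expanded library, day 1 round 1, inside the control range. Without either day 4 library the Il1r1 value was 0.42 and the call was lost (adjusted p 0.0697 and 0.0693). The decoy gene Il1r2 was 250.2, 275, 204, 219 and 202 CPM in the control libraries and 235, 80.5, 53.6, 23.4 and 45.9 CPM in the expanded ones (log2 fold change -1.89 ± 0.36 (SE), adjusted p 0.00310, lower in 5 of 5 pairs). The expanded library of day 1 round 1 stayed in the control range of Il1r2 and the other 4 lay below it. Il18 was low in both arms, at 5.07, 3.83, 4.43, 5.52 and 5.04 CPM in the control libraries and 2.41, 1.42, 2.62, 1.80 and 1.35 CPM in the expanded ones, without overlap (log2 fold change -1.50 ± 0.24 (SE), adjusted p 0.00115, lower in 5 of 5 pairs). Pericytes or smooth muscle, the class that gauges free RNA for Il18, held 1.80 CPM in control and 1.78 CPM in expanded skin, so the expanded fibroblast level lay at the gauge. Summed over the class, fibroblasts of expanded skin thus had more transcript of the signalling IL-1 receptor and less of the decoy. Clusters within the class, given below, differed in their Il1r2 level and in the direction of its change.

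The co-receptor gene Il1rap was 76.6, 62.9, 72.2, 71.5 and 69.5 CPM in the control libraries and 71.6, 60.1, 68.3, 45.9 and 61.97 CPM in the expanded ones, with overlap (log2 fold change -0.41 ± 0.13 (SE), adjusted p 0.0343, lower in 5 of 5 pairs). This call was lost when libraries were scaled by their totals alone (-0.19, adjusted p 0.256) and without any of 6 libraries (control day 1 round 1, day 2 round 1 or day 4, expanded day 1 round 2, day 2 round 2 or day 4), where it ranged from -0.42 to -0.33. Il1b (log2 fold change 0.97 ± 0.59 (SE), adjusted p 0.238) and Il1rn (log2 fold change 0.15 ± 0.67 (SE), adjusted p 0.895) were not called in fibroblasts.

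**Figure D4:**
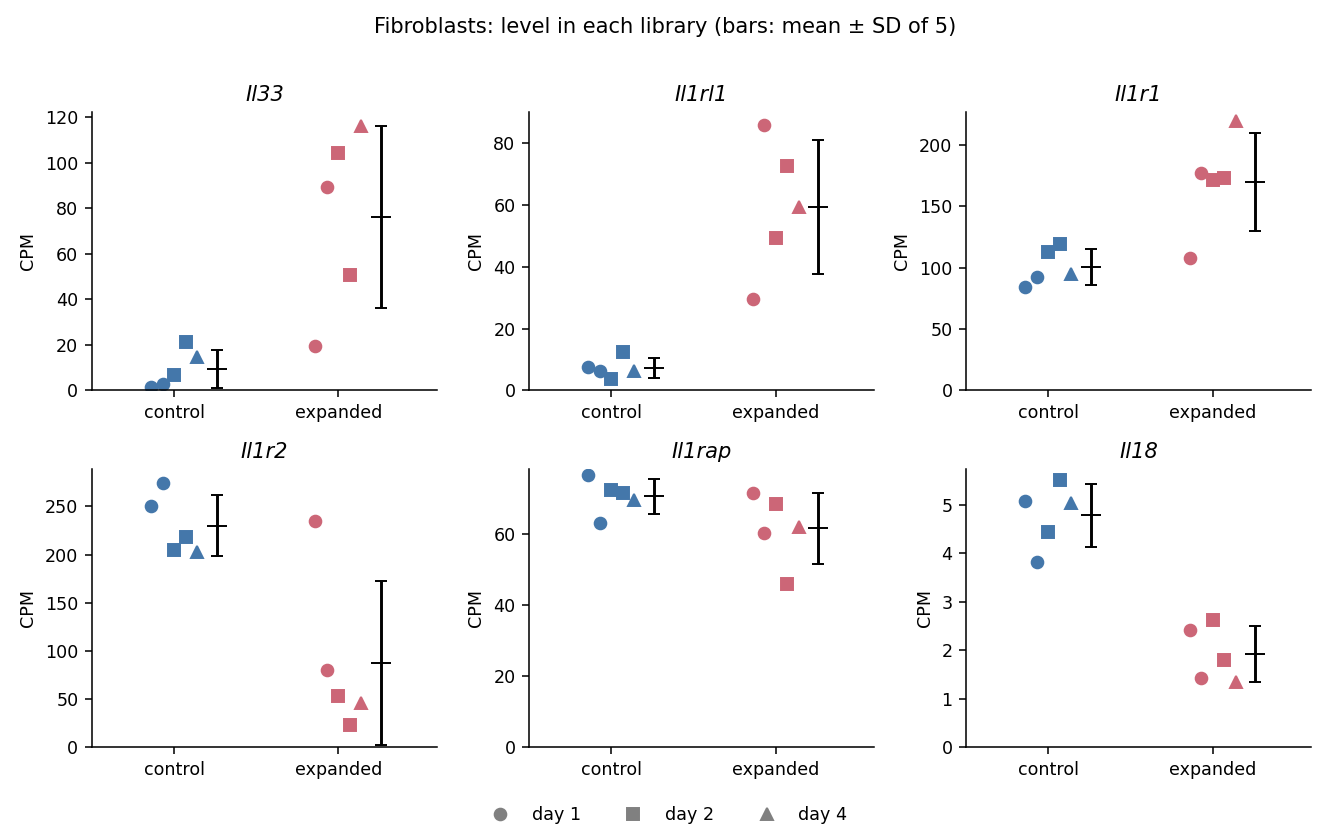
Level (CPM) of members in the fibroblasts of each library, control and expanded, with symbols for the day and bars for the mean ± SD. Il1rl1 and Il18 do not overlap between arms, and 1 expanded library of day 1 keeps the control level of Il1r2.

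The fibroblast class held 8 clusters, called here by number. Cluster 1 had 3468 control and 84 expanded cells and cluster 3 had 859 and 33, while cluster 29 made up 1.98% of control and 7.50% of expanded fibroblasts. Without clusters 1 and 3, an alternative added after seeing the data, the calls stood for Il33 (3.33 ± 0.55), Il1rl1 (2.53 ± 0.34), Il1r1 (0.71 ± 0.13), Il1r2 (-1.54 ± 0.34) and Il18 (-1.28 ± 0.33), and that of Il1rap was lost (-0.16 ± 0.13, adjusted p 0.432). Cluster 0, with 10.999% of control and 34.2% of expanded fibroblasts, had 2 markers of dermal papilla or sheath (Crabp1 and Wif1) and 0 of fibroblasts among its 10 leading genes. Without cluster 0, also added after seeing the data and with at least 10 cells per library, Il33 (3.65 ± 0.57), Il1rl1 (3.07 ± 0.33), Il1r1 (0.70 ± 0.16), Il1r2 (-1.67 ± 0.36) and Il18 (-1.32 ± 0.23) were called, Il1rap was not (-0.25 ± 0.13, adjusted p 0.164), and 31.4% of all genes were called. The share of all genes called without clusters 1 and 3 was 23.5%. In control skin Il1r2 averaged 19.3 CPM in cluster 0, 312 CPM in cluster 1 and 317 CPM in cluster 3. Clusters 0, 1 and 3 were not left out together, and the part of the cluster mix in the Il1r2 result was not tested. There were 6 clusters with enough libraries to be tested on their own.

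Il33 and its receptor gene peaked in different clusters. Cluster 29, led by Apod, a lipid-binding protein, Ebf2, Ccl11 and Il33 itself, held most Il33 per UMI, at 175 ± 121 CPM in control (SD, n = 4) and 535 ± 359 CPM in expanded skin (SD, n = 4) (log2 fold change 1.72 ± 0.54 (SE), adjusted p 0.0904, higher in 3 of 3 pairs, not called). No Il1rl1 UMI was found in cluster 29 in 8 libraries, which allows up to 2.26 CPM in control and 1.31 CPM in expanded skin (3 counts over the group). Cluster 2, led by the chemokine gene Ccl19 and by Tnc, Saa3, Timp1 and Mmp3, held most Il1rl1, at 13.8 ± 10.3 CPM in control (SD, n = 5) and 207 ± 83.9 CPM in expanded skin (SD, n = 5) (log2 fold change 3.66 ± 0.36 (SE), adjusted p 4.15e-05, 5 of 5 pairs). Il33 also rose in cluster 2, from 11.5 ± 13.9 to 119.8 ± 122 CPM (log2 fold change 3.14 ± 0.46 (SE), adjusted p 0.000411, 5 of 5 pairs). Cluster 2 thus held both transcripts, and cluster 29 the ligand only, within the limit that its counts set. Of all genes, 27.7% were called in cluster 2 and 4.37% in cluster 29.

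Il33 rose in clusters 2, 4, 5 and 13 of the 6 tested, with log2 fold changes of 2.43 to 3.22, and Il1rl1 rose in clusters 0, 2, 4 and 13, with 1.21 to 3.66. The shares of all genes called were 11.4% in cluster 0, 6.51% in cluster 4, 4.16% in cluster 5 and 19.9% in cluster 13. In cluster 5, led by Lrrc15 and Tnn, Il1rl1 was 12.9 ± 3.49 CPM in control (SD, n = 5) and 11.9 ± 13.3 CPM in expanded skin (SD, n = 5) (log2 fold change -0.43 ± 0.45 (SE), adjusted p 0.633). Il1r1 rose in clusters 0, 2, 13 and 29, from 0.56 in cluster 0 to 2.07 ± 0.25 in cluster 29. Il1r2 fell in clusters 2 (log2 fold change -1.60 ± 0.29 (SE), adjusted p 0.00137) and 13 (log2 fold change -1.48 ± 0.34 (SE), adjusted p 0.00749). It rose in cluster 29 (log2 fold change 3.17 ± 0.67 (SE), adjusted p 0.0184), where it was 3.06 ± 3.90 CPM in control (SD, n = 4) and 32.4 ± 20.5 CPM in expanded skin (SD, n = 4). These values rest on 5 control and 69 expanded UMIs, with a lowest control value of 0 CPM. Il1b in cluster 29 averaged 1.53 CPM in control skin and reached 144 CPM in an expanded library. The part of RNA from other cells was not tested. Il18 fell in clusters 2 (-1.97) and 13 (-1.24), and Il1rap rose in cluster 0 (log2 fold change 0.96 ± 0.17 (SE), adjusted p 0.00399), led by Coch and Fmod. For Il1r2 no call was made in clusters 0 (0.49 ± 0.22), 4 (-1.10 ± 0.43) and 5 (-0.72 ± 0.31). Members thus moved inside clusters, while the clusters' shares of the class also varied.

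**Figure D5:**
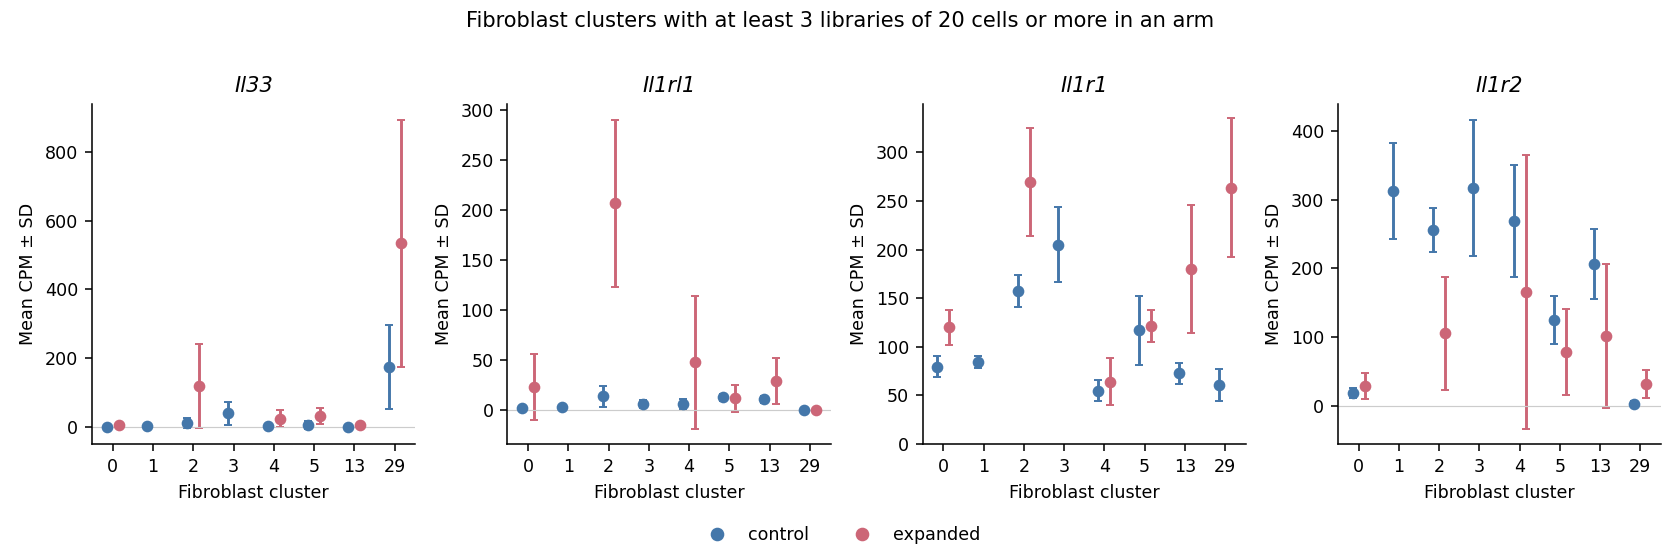
Mean CPM ± SD over libraries of members in each fibroblast cluster (horizontal axis), control and expanded. Il33 is highest in cluster 29 (535 CPM in expanded skin) and Il1rl1 in cluster 2 (207 CPM).

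Dermal papilla or sheath cells, the mesenchyme of the hair follicle, had 3 of 4 tested members higher, against 3.42% of all genes called and 2.01% called higher. Without day 1 round 1, which had 17 of these cells in each arm, Il1r1 was 40.1, 26.4, 57.3 and 56.8 CPM in control and 95.7, 131, 108 and 168 CPM in expanded libraries, without overlap (log2 fold change 1.33 ± 0.23 (SE), adjusted p 0.00353, 4 of 4 pairs). Il1b was 5.54, 0, 9.62 and 8.70 CPM in control and 29.2, 15.9, 43.5 and 34.5 CPM in expanded libraries, again without overlap but near the free RNA gauge of 22.01 and 20.5 CPM in Schwann cells (log2 fold change 1.93 ± 0.37 (SE), adjusted p 0.00802, 4 of 4 pairs). Neutrophil transcripts in these cells averaged 5.78 CPM (0 to 12.5) in control and 27.2 CPM (2.66 to 93.8) in expanded skin, and their part in the Il1b result was not tested. In the Schwann gauge class they averaged 155 CPM in control and 103 CPM in expanded skin. Without either day 4 library the Il1b call was lost (1.93 and 1.94, adjusted p 0.0604 and 0.0806). Il1rl1 was 0, 0, 2.80 and 1.16 CPM in control and 0, 146, 20.7 and 5.65 CPM in expanded libraries (log2 fold change 4.42 ± 0.87 (SE), adjusted p 0.00998, higher in 3 of 4 pairs), with 9 UMIs in all control and 149 in all expanded cells of the class. The Il1rl1 call was lost with DESeq2 (3.76, adjusted p 0.127) and without the control library of day 2 round 2 (3.17, adjusted p 0.306).

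MHC class II phagocytes, which carry the genes for antigen presentation (1539 control and 325 expanded cells), were made up of phagocyte clusters 2 and 7. Cluster 7 (198 control and 53 expanded cells, 12.9% and 16.3% of the class) was led by Trbc1, Apod and Trbc2, so that its 10 leading genes held 2 T cell markers and 0 markers of its own class, and the class name is uncertain for it. Its pooled level of Cd74, which codes for a chaperone of MHC class II, was 49601 CPM in control, against 36965 CPM in cluster 2. Cd3e, which codes for a part of the T cell receptor complex, was 0.584 CPM in cluster 7 and 1.47 CPM in cluster 2 of control skin. Il1rn was 8.75 CPM in cluster 7 and 398 CPM in cluster 2 of control skin.

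The MHC class II phagocytes, with both clusters, had 2 of 7 tested members lower, against 9.99% of all genes called and 6.32% called lower. Il1rn was 344, 457, 367, 164 and 378 CPM in the control libraries and 112, 293, 33.6 and 216 CPM in the expanded ones with at least 20 cells, which leave out day 2 round 2 (log2 fold change -1.61 ± 0.41 (SE), adjusted p 0.0300, lower in 4 of 4 pairs). Il1rl1 was 43.2, 38.9, 39.4, 44.7 and 40.7 CPM in control and 23.9, 15.3, 37.5 and 31.1 CPM in expanded libraries, without overlap (log2 fold change -0.92 ± 0.23 (SE), adjusted p 0.0296, 4 of 4 pairs). Il1b, at 2149 ± 535 CPM in control (SD, n = 5) and 2734 ± 675 CPM in expanded skin (SD, n = 4), was not called (log2 fold change 0.06 ± 0.21 (SE), adjusted p 0.887). In cluster 2 alone, an alternative added after seeing the data with at least 10 cells per library, Il1rn (-1.56 ± 0.33) and Il1rl1 (-0.83 ± 0.24) were called, as was Il1r1 (-0.96 ± 0.28), against 15.1% of all genes. In the whole class Il1r1 was not called (log2 fold change -0.89 ± 0.27 (SE), adjusted p 0.0569, lower in 4 of 4 pairs), but was called when each day and round was blocked (-0.99 ± 0.18, adjusted p 0.00440). The Il1rn and Il1rl1 calls of the whole class were lost without any of 6 of the 9 libraries and after thinning, the Il1rn call also when cells were clustered with no gene left out (-0.73, adjusted p 0.104) and the Il1rl1 call when libraries were scaled by their totals (-0.67, adjusted p 0.0640). The single libraries were control day 1 round 1, day 1 round 2 and day 4, expanded day 1 round 1 and day 4, and expanded day 2 round 1 (Il1rn) or day 1 round 2 (Il1rl1), with values of -1.84 to -1.20 for Il1rn and -1.03 to -0.69 for Il1rl1.

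Endothelial cells, which line the blood vessels, had 1 of 5 tested members called, against 11.1% of all genes. Il1rap was 6.32, 11.3, 14.9, 11.9 and 6.60 CPM in control and 5.46, 4.38, 4.46, 7.11 and 2.72 CPM in expanded libraries (log2 fold change -1.19 ± 0.29 (SE), adjusted p 0.0207, lower in 5 of 5 pairs). The highest expanded value lay within the control range. The test rested on 139 Il1rap UMIs in all. No class was set as a gauge of free Il1rap RNA, fibroblasts held more of it, and the part of free RNA was not tested. The call was lost without any of 4 libraries (day 1 round 2 or day 4 of either arm), with values of -1.15 to -1.07. Il1r1 in these cells was 86.4 ± 23.5 CPM in control (SD, n = 5) and 94.02 ± 29.97 CPM in expanded skin (SD, n = 5) (log2 fold change -0.04 ± 0.22 (SE), adjusted p 0.940).

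The calls in Schwann cells and melanocytes rested on few UMIs or 1 library. In Schwann cells, where 0.356% of genes were called, 1 of 4 tested members was called: Il1r2 was 52.4, 0, 45.1 and 58.4 CPM in control and 0, 2.61, 0, 4.05 and 3.60 CPM in expanded libraries (log2 fold change -4.10 ± 0.63 (SE), adjusted p 0.0143, lower in 3 of 4 pairs), with 102 and 7 UMIs in all. This class was chosen as the one that gauges free Il1r2 RNA, and fibroblasts, the main source of Il1r2 in control skin, showed a fall too. Whether free RNA had a part in the Schwann result was not tested. The call was lost without any of 5 libraries (day 1 round 2 or day 4 of either arm, or control day 2 round 2), with values of -4.13 to -3.68, and with cells of at most 5% mitochondrial UMIs (-3.86, adjusted p 0.0662). In melanocytes, where 1.56% of genes were called, 1 of 2 tested members was called: Il1b was 36.6, 0, 19.3 and 239 CPM in control and 0, 0, 11.5 and 7.86 CPM in expanded libraries (log2 fold change -3.53 ± 0.63 (SE), adjusted p 0.00314, lower in 3 of 4 pairs). Without the control library of day 4 the value was -1.91 (adjusted p 0.726), and without the expanded one -1.93 (adjusted p 0.429).

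Keratinocytes, the cells of the epidermis and hair follicle, showed no call. Over the whole keratinocyte compartment 0 of 9 tested members were called by edgeR, against 8.37% of all genes, and 3 (Il1rn, Il33 and Il1rl1) had an unadjusted p under 0.05. Il1rn was 34.5 ± 4.75 CPM in control (SD, n = 5) and 20.3 ± 9.60 CPM in expanded skin (SD, n = 5) (log2 fold change -0.97 ± 0.32 (SE), adjusted p 0.0779) and Il33 22.6 ± 9.51 CPM in control (SD, n = 5) and 14.1 ± 4.69 CPM in expanded skin (SD, n = 5) (log2 fold change -0.80 ± 0.30 (SE), adjusted p 0.115). DESeq2 called Il1rn and no other of the 9. In hair follicle keratinocytes 0 of 5 were called (1.83% of all genes; 1, Il1rn, at an unadjusted p under 0.05 and 0 by DESeq2). Pericytes or smooth muscle, the class with most Il1r1, had 0 of 5 members called by edgeR or DESeq2 and 0 at an unadjusted p under 0.05, against 15.8% of all genes, and Il1r1 there had log2 fold change 0.26 ± 0.27 (SE), adjusted p 0.558. In the lymphocyte compartment 0 of 7 members were called by edgeR or DESeq2 and 0 had an unadjusted p under 0.05, against 0.637% of all genes, and in regulatory T cells 0 of 2 were called (by DESeq2 and at an unadjusted p under 0.05 also 0), against 0.177% of all genes, with Il1rl1 at log2 fold change 0.11 ± 0.21 (SE), adjusted p 0.945. In recruited monocytes 0 of 7 members were called by edgeR or DESeq2 (0.334% of all genes), 1 of them, Il1b, at an unadjusted p under 0.05. It was 3016 ± 1275 CPM in control (SD, n = 4) and 1392 ± 909.5 CPM in expanded skin (SD, n = 5) (log2 fold change -1.25 ± 0.42 (SE), adjusted p 0.263). The name recruited monocyte is uncertain for the cluster that held most cells of this class.

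The effect of expansion was then fitted for each day, with 6 groups in 1 fit, in which the single day 4 library of an arm is assumed to vary like the others. Of 89 member-by-class effects, 0 differed between days by edgeR's test of the interaction after adjustment. The 89 include the sums of compartments and of all cells, which hold cells of the classes again. In this test the shares of all genes called were 0.117% in dermal papilla or sheath cells, 0.0676% in melanocytes, 0.0117% in MHC class II phagocytes, 0.00955% in endothelial cells and 0% elsewhere. An unadjusted p under 0.05 was reached by 15, some of them in sums that share cells, and the share of all genes at that p was not counted. In fibroblasts the log2 fold changes of Il1rl1 on days 1, 2 and 4 were 2.74, 2.77 and 3.02 (adjusted p 0.0362, 0.0406 and 0.176) and those of Il33 4.53, 2.37 and 2.76 (adjusted p 0.0285, 0.0996 and 0.287). Il1rl1 was called on days 1 and 2 and Il33 on day 1, and calls per day covered 5.86%, 3.64% and 0.0637% of all genes. Il1r2 had -1.03, -2.54 and -2.38 (adjusted p 0.203, 0.0336 and 0.193) and Il18 -1.51, -1.22 and -2.14 (adjusted p 0.0479, 0.116 and 0.183). Over all cells Il18 had -0.86, 1.34 and 0.41, of which day 2 was called (adjusted p 0.0460, 1.40% of all genes), and in the keratinocyte compartment Il1rn was lower on day 1 (-1.89, adjusted p 0.00949, 5.97% of all genes). In dermal papilla or sheath cells Il1rl1 was higher on day 2 (4.89, adjusted p 0.00255, with 66 of 8565 genes called). In melanocytes Il1b had -4.90 on day 4, where each arm had a single library.

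With the tagged mouse as the unit, 14 control and 14 expanded mice could be compared in the mononuclear phagocyte compartment, although the mice of an arm and round shared 1 droplet reaction. In this fit 4 of 8 tested members were called, against 44.6% of all genes. Il1a (log2 fold change 0.90 ± 0.35 (SE), adjusted p 0.0375) and Il18 (0.59 ± 0.18 (SE), adjusted p 0.00923) were higher, and Il1r1 (-0.56 ± 0.15 (SE), adjusted p 0.00337) and Il1rl1 (-1.63 ± 0.31 (SE), adjusted p 9.91e-05) lower. With the library as the unit, Il1rl1 alone of 9 members was called there (log2 fold change -1.14 ± 0.35 (SE), adjusted p 0.0426), against 20.1% of all genes, and this call was lost in 9 of 21 alternatives, among them library totals (-0.96), thinning (-0.52) and 7 of the 10 single libraries left out (-1.25 to -0.88). The 3 whose removal kept it were expanded day 1 round 1 and both of day 2 round 2. The share of members called was thus near that of all genes in the fit by mouse. In the lymphocyte compartment 0 of 3 tested members were called by mouse, with unadjusted p of 0.235 or more, against 5.30% of all genes.

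Genes known to be induced by IL-1 were followed as a list of 16, of which 15 were tested in fibroblasts. The list was chosen with earlier results of these data known, so its counts and medians are a description only. There 7 rose and 2 fell, against 14.5% of all genes called higher and 15.8% called lower. Their median log2 fold change was 1.33, against 0.02 over all genes tested. Cxcl5, a chemokine that attracts neutrophils, was 0 to 6.26 CPM in control and 15.1 to 602 CPM in expanded libraries (log2 fold change 6.90 ± 1.00 (SE), adjusted p 0.000788, 5 of 5 pairs). Saa3, an acute-phase protein, was 15.9 to 496 CPM in control and 560.0 to 2441 CPM in expanded libraries (log2 fold change 3.38 ± 0.83). Neither overlapped between arms, whereas Csf3, the growth factor of neutrophils, was 0.0984 to 6.81 CPM in control and 0.419 to 41.3 CPM in expanded libraries (3.61 ± 0.70), with the expanded library of day 1 round 1 inside the control range. Lcn2, an iron-binding protein that neutrophils also carry, had 4.88 ± 0.63, while neutrophil transcripts in fibroblasts ranged from 4.21 to 15.2 CPM in control and 5.44 to 34.2 CPM in expanded libraries, and their part in the Lcn2 result was not tested. The 2 that fell were the adhesion gene Vcam1 and Tnfaip6, which codes for a protein that binds hyaluronan. In dermal papilla or sheath cells 6 of 14 rose and 1 fell (median 1.30, against 0.01). Of all genes in these cells 2.01% were called higher and 3.42% in either direction. Saa3 (4.16 ± 0.51) and Il6 (1.72 ± 0.32) were higher there and Vcam1 (-2.34 ± 0.35) lower.

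In endothelial cells, where neutrophil transcripts averaged 0.616 CPM in control and 1.31 CPM in expanded libraries and their part was not tested, 1 of 13 genes of the list rose, Lcn2, against 11.1% of all genes called. Endothelial Lcn2 was higher in 4 of 5 pairs. On day 1 it was 8.13 and 136 CPM (round 1) and 10.9 and 488 CPM (round 2) in control and expanded libraries. On day 2 it was 1.65 and 2.68 CPM (round 1) and 10.7 and 4.26 CPM (round 2), and on day 4 5.70 and 8.46 CPM, so that the large difference lay on day 1. In the same cells 4 fell (median -0.64, against 0.02 over all genes): Vcam1 (-2.65 ± 0.54), the neutrophil-attracting chemokines Cxcl2 (-1.88 ± 0.41) and Cxcl1 (-1.51 ± 0.41), and Il6 (-0.94 ± 0.23). In lymphatic endothelial cells, with 10.5% of all genes called and 0 of 1 tested members (Il1r2, log2 fold change -1.90 ± 0.73 (SE), adjusted p 0.110; called when each day and round was blocked, -2.07 ± 0.64, adjusted p 0.0438), 1 of 12 rose and 4 fell, among them Il6 (-3.06 ± 0.38) and the matrix protease gene Mmp3 (-2.99 ± 0.43). In MHC class II phagocytes 2 of 10 rose and 2 fell, against 9.99% of all genes called. Saa3 there was 0 to 4.89 CPM in control and 7.90 to 75.2 CPM in expanded libraries (3.59 ± 0.61), while fibroblasts held up to 2441 CPM. Tnfaip6 was 8.68 to 34.9 CPM in control and 3.95 to 13.001 CPM in expanded libraries (-1.85 ± 0.40), against 1943 to 3269 CPM in control and 1178 to 2387 CPM in expanded libraries in fibroblasts. No class was set as a gauge of free RNA for either gene, and the part of free RNA was not tested. The differences between these classes were not tested.

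The other lists, also chosen with earlier results known, are read against the 30.3% of all fibroblast genes called. Among 16 signalling genes, all tested in fibroblasts, Nfkb1, a subunit of NF-kappa-B, fell (log2 fold change -0.65 ± 0.20 (SE), adjusted p 0.0301) and 0 rose. Of 12 tested genes of processing and release, Nlrp3, an inflammasome sensor, rose by the test (log2 fold change 2.01 ± 0.63 (SE), adjusted p 0.0336) at 0.201 to 0.849 CPM in control and 0.157 to 5.85 CPM in expanded libraries. It was higher in 3 of 5 pairs and lower in 2, and neutrophil transcripts in fibroblasts, up to 34.2 CPM in expanded libraries, moved as well and their part was not tested. In the same list Casp4, which cleaves gasdermin D (log2 fold change -1.04 ± 0.14 (SE), adjusted p 0.000515), and Aim2, a sensor of DNA in the cytosol (log2 fold change -1.83 ± 0.36 (SE), adjusted p 0.00367), fell. Of 9 tested brakes, Il18bp, the soluble inhibitor of IL-18 (log2 fold change -0.80 ± 0.24 (SE), adjusted p 0.0272), and Cyld, which removes ubiquitin chains from signalling proteins (log2 fold change -0.47 ± 0.08 (SE), adjusted p 0.00224), fell. In MHC class II phagocytes the brakes Tollip (-0.80 ± 0.22) and Zc3h12a (-0.63 ± 0.17), which codes for an RNase that cuts cytokine transcripts, fell, as did the kinase gene Irak2 (-0.73 ± 0.21). Over all cells, where 25.2% of all genes were called, 2 of 6 other family genes rose and 1 fell, with Il18rap, the co-receptor of IL-18, higher (1.11 ± 0.32) and Il1rl2, the receptor of IL-36, lower (-0.68 ± 0.18). Of 16 signalling genes 1 rose, Tab1 (0.57 ± 0.19), and 3 fell, the NF-kappa-B subunits Nfkb1 (-0.92 ± 0.22) and Rela (-0.53 ± 0.15) and the kinase gene Mapk8 (-0.43 ± 0.09), each in 5 of 5 pairs. Of 16 genes of processing and release 5 rose, among them Prtn3, a neutrophil protease (1.77 ± 0.48), and Pycard, the inflammasome adaptor (0.90 ± 0.11), and 1 fell, Casp4 (-0.82 ± 0.21, lower in 4 of 5 pairs). Of 11 brakes 0 rose and 1 fell, Cyld (-0.30 ± 0.09). The number of sorted neutrophils moved with these sums, and its part was not tested.

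The genes whose levels over 58 class-by-arm means were most like each member were taken from 15839 genes by Pearson's r of log2(CPM + 1), as a description, since classes of a library share its depth and free RNA. Those nearest Il1b were Mefv (r = 0.95), Nlrp3 (0.94) and Igsf6 (0.94). For Il18 they were Card9 (0.90), March1 (0.88) and Spi1 (0.88). Il33 was nearest to Il34 (0.80), Adh7 (0.80) and Slitrk6 (0.79). Il1f9 was nearest to Mrgpra2b (0.90), Mirt2 (0.89) and Fpr1 (0.89), Il1a to Cyp4f18 (0.89), and Il1rn to Cd300lb (0.89). The receptor genes had no gene as close: Il1r1 reached 0.61 (Lpp), Il1rl1 0.68 (Rln3), Il1rap 0.69 (Siglecf) and Il1r2 0.77 (Mcemp1).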

How the data were processed

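Single-cell transcripts were counted from the 3′ end in 10 libraries of mouse skin, 5 per arm. The deposited matrices hold whole-number UMI counts for each gene in each barcode. Cell Ranger 6.1.2 and mm10 are named in the submitters' processing notes. Depth and precision rest on 17726739 to 75470722 UMIs per library.

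Barcodes with at least 500 UMIs, at least 200 genes and at most 10% mitochondrial UMIs were kept. Doublets were removed where a barcode carried tags of more than 1 mouse or by Scrublet (1.71% of kept barcodes by Scrublet, 3.73% in all). Cells were clustered with scanpy 1.11.5 (2000 variable genes, 30 components, Leiden resolution 1) without the 10 members and named by marker lists. The members and gene lists were chosen with earlier results of these data known. Pathway genes are named, at most 4 per list and class, where they were called and moved the same way in every day-and-round pair, by size of the change. Others named from counts of 5 or fewer (among them Vcam1, Tnfaip6 and Nlrp3 in fibroblasts and Lcn2 in endothelial cells) were chosen after their values were seen.

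Sums of UMIs were formed for each class in each library with at least 20 of its cells and tested by edgeR 4.0.16 (quasi-likelihood, TMM scaling, filterByExpr, day as covariate, Benjamini-Hochberg adjustment over all genes of the class) where each arm had at least 4 libraries. The SE is the size of the log2 fold change divided by the root of F. Libraries pool mice, so p-values measure the spread between pools. Ratios were compared by exact two-sided permutation tests. Shares are described without a test, since the class of each was picked from the same values. Lists are described by counts and medians, and antisense or overlapping genes were not examined. On simulated counts the fibroblast test recovered 70.4% of 2-fold and 87.5% of 4-fold changes, and 7.27% of its calls were false. In MHC class II phagocytes it recovered 46.4% and 91% (6.85% of calls false). Over all cells it recovered 39.2% and 87.8% (2.36% of calls false). The simulation changed 200 genes, drew counts independently and had no effect of day or round. Its rates therefore need not hold for these data, where far more genes were called and paired libraries correlated. Control and expanded libraries of a day and round share their sequencing round per the labels, and their deviations correlated (r of 0.231 to 0.504 over all cells, 0.0204 to 0.476 in fibroblasts). Alternatives were DESeq2 1.42.0, other scalings, filters, thinning, cell minimums, clustering, a block for the pair, and each library left out. Scaling by library totals, the fibroblast clusters, and classes without the clusters that had more markers of another class than of their own among their 10 leading genes (1 of MHC class II phagocytes, 1 of fibroblasts, 2 of hair follicle keratinocytes, 1 of recruited monocytes and 1 of basal keratinocytes) were added after seeing the data. Without that cluster too few recruited monocytes were left to test.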

Additional observations from a re-analysis of the deposited data

Results flagged for a closer look

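In 7 of 72 groups of 4 or 5 libraries a single library stood apart from the others by its gap, where chance gives about 1 in 20. Il1rl1 in dermal papilla or sheath cells was 145.82 CPM in the expanded library of day 2 round 1, against 0 to 20.7 CPM in the other 3 expanded libraries. Il1r2 in fibroblasts was 234.89 CPM in the expanded library of day 1 round 1, against 23.4 to 80.5 CPM in the others, and the same library held 71.537% of its Il1rl1 UMIs in fibroblasts, against 52.2% to 57.8%. Il1b in melanocytes was 239.3 CPM in the control library of day 4, against 0 to 36.6 CPM. The control library of day 2 round 2 stood apart in 3 shares. Its resident macrophages gave 16.981% of Il1a UMIs, against 77.9% to 80.8% in the other control libraries. Its recruited monocytes gave 23.028% of Il1rn UMIs, against 0.968% to 3.79%, and 18.072% of Il18 UMIs, against 0.658% to 3.87%. That library held 197 recruited monocytes, and the other control libraries 8 to 62.

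In 2 cases the called changes of a gene went opposite ways in every pair of 2 groups of cells, and the difference itself was not tested. The log2 fold change of Il1rl1 was 2.81 in fibroblasts and -0.92 in MHC class II phagocytes, a difference of 3.7266. That of Il1r2 was 3.17 in fibroblast cluster 29 and -1.60 in cluster 2, a difference of 4.773. The control side of cluster 29 rested on 5 Il1r2 UMIs.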

How the results depend on the processing

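No call reversed its direction. Of 361 checks of the 19 calls (compartments and all cells included), 292 kept and 69 lost the call. Il33, Il1rl1, Il18 and Il1r2 in fibroblasts held in all 22 alternatives, as did Il1f9 and Il33 over all cells in all 20 and Il1r1 in dermal papilla or sheath cells in all 14. Member-by-class calls numbered 14, against 24 with no filter on low counts, 6 after thinning, 7 with at least 50 cells per class and library, and 6 to 14 with a library left out. Thinning left 7 classes to test and the minimum of 50 cells 5. Over all cells 4 members were called, and 2 to 5 with a library left out. In fibroblasts 6 were called, and 4 to 6 with a library left out. Under a replicate block by day and round the counts were 16, 3 and 6, and among the calls only Il1a over all cells was lost, while Il1r1 in MHC class II phagocytes and the mononuclear phagocyte compartment and Il1r2 in lymphatic endothelial cells were gained. Leaving out either day 4 library removes day 4 from the contrast, since the other library then carries the day alone. Of 70 uncalled tests, 20 were called under at least 1 alternative, 14 of them under one other than no filter.

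Changes of shares, in percentage points, moved as follows. Il1b was -31.4 when cells were clustered with no gene left out and -45.0 to -28.6 with a library left out. Il1f9 was 29.8 and Il1rl1 16.6 after thinning. Il1r1 was -15.8 and Il1r2 -49.5 with at most 5% mitochondrial UMIs, and Il1r2 -49.0 when clustered with no gene left out. With a library left out Il18 ranged from 36.9 to 53.4, Il1rap from -52.3 to -37.5, Il1r1 from -19.4 to -12.4 and Il1r2 from -62.8 to -43.6. The causes were not tested. Genes of few UMIs, and neutrophils of control skin, are limited by depth and cell number.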
